A study of Mus musculus with 27 samples.

Results

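The replication-dependent histone genes of the mouse retina were followed over 7 ages, from embryonic day 14 (E14) to postnatal day 60 (P60). Members were taken by name, as the entries whose symbol starts with Hist1h, Hist2h, Hist3h or Hist4h, and where a symbol had more than 1 entry the one with the highest mean was used. This gave 68 genes of the 37118 symbols in the table: 5 of the H1 family, 19 each of H2A and H2B, 12 of H3 and 13 of H4. Among them, Hist1h2al (H2A) and Hist3h2bb-ps (H2B) are annotated as pseudogenes and were kept. The data were 27 RNA-seq libraries of whole retina from wild type C57BL/6J mice, in groups of 3 (E14, E17, P6), 4 (P1, P15, P28) and 6 libraries (P60). The mice carried no transgene or treatment. Libraries up to P1 came from pools of both sexes and later ones from males, so that the change of sex and the step from P1 to P6 cannot be told apart. Libraries before P60 each pooled several embryos or mice. At P60 the study's methods give 2 pools and 4 single mice without saying which library is which. Values are read counts scaled to library size (cpm) as the authors deposited them, and the libraries held 7076646 to 11330762 counted reads. Of these, 49794 to 80041 reads per library fell on the 68 genes from E14 to P1, 5559 to 8334 at P6 and 2544 to 5343 from P15 on.

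Histones are the proteins around which DNA is wound. H2A, H2B, H3 and H4 form the core of the nucleosome, and H1 binds the DNA that links nucleosomes. A cell that copies its DNA needs a fresh set of histones, and the replication-dependent genes deliver them in S phase. Their mRNAs usually end in a conserved stem-loop instead of a poly(A) tail, which is bound by the protein SLBP and cut with the help of the U7 small nuclear RNA. Libraries of poly(A)-selected RNA therefore miss most of them, whereas these libraries were made from total RNA. In the mouse retina, progenitors divide through embryonic life and around birth, and cell division ends in the central retina first and in the periphery in the days that follow.

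The genes lie in clusters. By the GENCODE annotation of GRCm38, 53 of the 54 genes named Hist1 lay between chr13:21715763-23934851, a span of 2219.1 kb, and the remaining gene of that name, the pseudogene Hist1h2al, lay apart at chr13:51202727-51203065. The 10 Hist2 genes lay at chr3:96219865-96270132 (50.3 kb), the 3 Hist3 genes at chr11:58948920-58956830 (7.9 kb) and Hist4h4 on chromosome 6 at 136801553 to 136804415. The stem-loop was searched as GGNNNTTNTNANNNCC in the annotated transcripts, and 45 of the 68 genes held it. In 42 of the 45, the RefSeq gene model ends within 5 bases of the stem-loop with its flank. Of the 23 genes without a match, 17 had only transcripts under 500 bases, which often stop near the end of the coding sequence. The 7 sequences below are shown because they cover all 5 families and the main patterns of the values that follow. Capitals mark the 16 bases of the stem-loop and lower case the 5 bases on either side, on the strand of the gene.
Hist1h1d (H1, chr13:23555782-23555807, plus strand): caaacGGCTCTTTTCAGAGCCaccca
Hist1h2ao (H2A, chr13:21810893-21810918, plus strand): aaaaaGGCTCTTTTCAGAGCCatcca
Hist3h2a (H2A, chr11:58955167-58955192, plus strand): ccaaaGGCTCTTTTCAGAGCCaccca
Hist1h2be (H2B, chr13:23585526-23585551, minus strand): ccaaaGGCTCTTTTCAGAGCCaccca
Hist1h3b (H3, chr13:23752815-23752840, plus strand): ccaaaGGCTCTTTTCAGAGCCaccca
Hist1h4d (H4, chr13:23581945-23581970, plus strand): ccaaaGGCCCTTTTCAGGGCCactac
Hist1h4j (H4, chr13:21735432-21735457, plus strand): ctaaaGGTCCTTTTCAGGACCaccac
Hist3h2a, Hist1h2be and Hist1h3b hold the same 26 letters, which Hist1h1e and Hist1h2bg hold as well, making 5 genes in all. The stem-loop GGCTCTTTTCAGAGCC was found in 26 genes, none of them H4. The 12 H4 genes with a match all carry GGCCC or GGTCC as the left arm of the stem, and the other 33 genes all carry GGCTC.

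From E14 to P1 the histone genes together held 0.690% to 0.651% of the counted reads by age mean, and at P6 0.0827%. Their summed level was 6634, 6969 and 7092 cpm in the E14 libraries, 6567, 7063 and 6675 at E17, and 7473, 6277, 6296 and 6009 at P1. It was 785, 901 and 795 cpm at P6. It was lowest at P15, with 368, 335, 344 and 395 cpm, was 425, 385, 368 and 467 at P28, and ran from 437 to 670.4 cpm at P60 with a median of 538. Every library from P6 on lay below every library from E14 to P1, and the P6 libraries lay above all later ones. As a share of the E14 mean, the sum was 98.1% at E17, 94.4% at P1, 12.0% at P6, 5.22% at P15, 5.96% at P28 and 7.78% at P60. These sums were compared as a description and not tested. In a whole tissue, fewer dividing cells and less histone RNA per cell cannot be told apart.

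**Figure D1:**
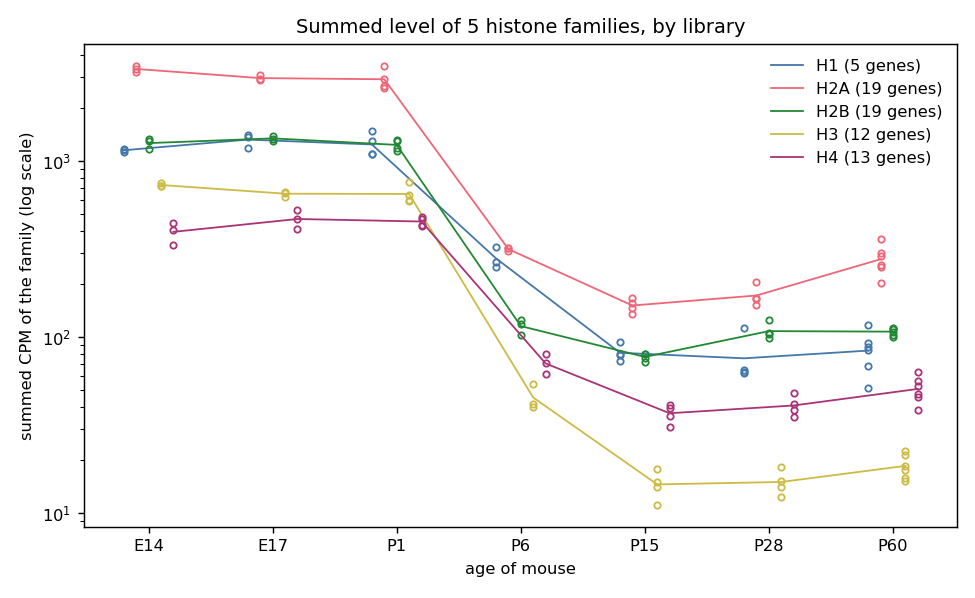
Summed cpm (log scale) of the H1, H2A, H2B, H3 and H4 genes at each age, with a circle for each of the 27 libraries and a line through the means. All 5 families dropped between P1 and P6, H1 least steeply and H3 most, and H3 was the lowest family from P6 on.

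The balance between the families differed most at P6, where H1 took a larger share than at any other age. H2A held 48.5% ± 0.637 of the summed histone cpm at E14 (SD, n = 3), H2B 18.4% ± 0.760, H1 16.7% ± 0.561, H3 10.6% ± 0.643 and H4 5.73% ± 0.666. At P6 the share of H1 was 33.8% ± 2.06 (n = 3), against 19.1% ± 1.44 at P1 (n = 4). The shares of H2A, H2B and H3 at P6 were 38.4% ± 2.83, 13.9% ± 0.845 and 5.44% ± 0.491. Relative to E14, the summed cpm at P6 was 24.3% for H1 and 17.8% for H4, but 9.44% for H2A, 9.09% for H2B and 6.17% for H3. At P60 H1 was back at 15.4% ± 2.51 of the histone cpm (n = 6) and H2A stood at 51.3% ± 3.04.

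Single genes were tested with limma on log2(cpm + 1) across all 31760 features that reached 1 cpm in 3 or more libraries. Calling a gene required an adjusted p below 0.05 together with a log2 fold change of 1 or more in either direction. Of the 68 histone genes, 65 passed the filter on low values, which a gene could pass through the early ages alone, so the counts below describe the genes and are not evidence about histone genes as a class. The 3 that did not pass were the testis genes Hist1h2aa and Hist1h2ba, which encode variants of H2A and H2B in sperm precursors and had at most 5 and 10 reads in any library, and Hist1h2br. The third testis gene of interest, Hist1h1t, was not analysed here.

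The embryonic steps gave no calls. Between E14 and E17, limma called 0 of the 65 genes in either direction, beside 2.9% of all features higher and 0.702% lower, and 5 passed an unadjusted p under 0.05. EdgeR and DESeq2 on recovered reads also called 0. Among those 5, Hist1h1c and Hist1h1e, which encode linker histones H1.2 and H1.4, were higher at E17 by 0.44 and 0.55 on the log2 scale, and Hist1h1a (H1.1) was lower by -0.47, none of them past an adjusted p of 0.05. All 13 H4 genes had a log2 difference above 0, with a median of 0.21, and none passed an unadjusted p under 0.05. The genes of this step were picked after their values were seen. Between E17 and P1, limma, edgeR and DESeq2 again called 0 genes, beside 1.23% of all features higher and 0.614% lower, and 2 genes passed an unadjusted p under 0.05.

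From P1 to P6, 59 of the 65 genes fell and 0 rose, beside 6.74% of all features lower and 6.3% higher. The median log2 fold change of the 65 genes was -2.72, against -0.03 for all features tested. In all 65 the P6 libraries lay below the P1 libraries without overlap, as they did in 25.4% of all features, while 22.5% of features had P6 libraries above those of P1. The 6 genes not called were Hist1h2ad, Hist1h2bc, Hist1h2be, Hist1h4c, Hist2h2aa1 and Hist2h2be, with log2 differences from -0.91 to -0.15. Hist1h2ad measured 0.504 to 1.72 cpm at P1 and 0 to 0.141 at P6, and Hist2h2aa1 1.02 to 1.96 and 0.276 to 0.565. At such low levels the added 1 cpm limits the log2 difference. No testing tool called a histone gene higher at P6. Genes were also counted apart by the share of 50-base stretches of their annotated transcripts that occur in other genes. Of the genes that share at most 50%, 31 of 35 fell with a median of -2.38. Of those that share more, 28 of 30 fell with a median of -2.88. The share can be low where a transcript is long, as in Hist1h2ac (11.6% over 2482 bases, with 47 genes sharing). This split therefore does not cleanly separate genes with and without near-identical copies.

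**Figure D2:**
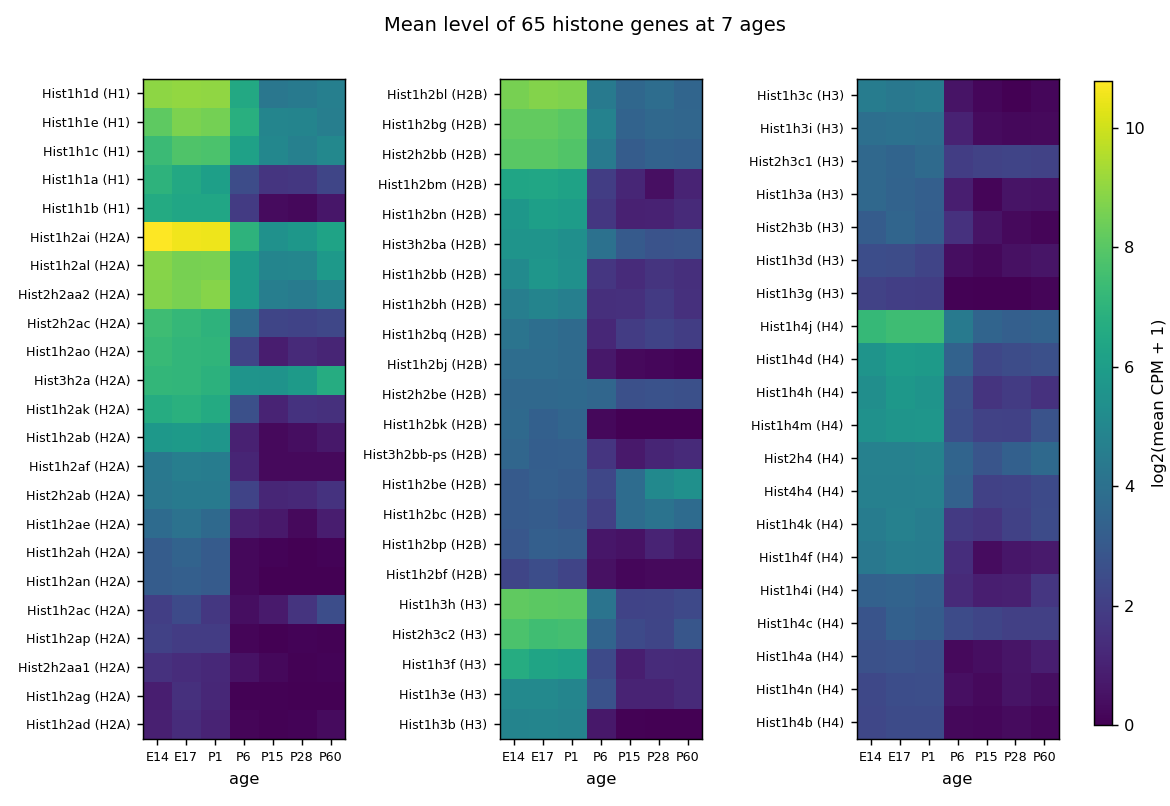
Mean level of the 65 tested genes as log2(mean cpm + 1), 1 row per gene grouped by family and ordered by embryonic level, 1 column per age. The break between P1 and P6 runs through nearly all rows, and Hist3h2a, Hist1h2be, Hist1h2bc and Hist1h2ac brighten again at later ages.

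Linker histone genes fell to different degrees. Hist1h1b, which encodes H1.5, measured 89.9, 73.2, 87.4 and 75.0 cpm at P1 and 2.54, 3.14 and 2.21 cpm at P6, and limma gave a log2 fold change of -4.51 ± 0.21 (SE, adjusted p = 1.3e-17). In the mature libraries it did not exceed 1.51 cpm. Hist1h1e measured 435, 363, 388 and 297 cpm at P1 and 104, 127 and 106 at P6, a fold change of only -1.71 ± 0.24 (adjusted p = 4.6e-07, limma). Both genes had fallen in every P6 library, but H1.4 RNA remained at 30.2% of its P1 mean and H1.5 RNA at 3.23%. Of the other H1 genes, Hist1h1c fell by 1.58 on the log2 scale, Hist1h1d (H1.3) by 2.49 and Hist1h1a by 3.54 (adjusted p = 2.8e-10, 1.3e-10 and 6.2e-16, limma). Hist1h1d and Hist1h1e were still falling after P6, from 82.2, 109 and 80.1 to 19.0, 16.1, 21.9 and 17.2 cpm for Hist1h1d at P15, and the log2 fold changes of that step were -2.22 ± 0.23 and -1.92 ± 0.24 (adjusted p = 3.5e-09 and 1.0e-07, limma).

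H2A was dominated by a single entry. Hist1h2ai encodes a canonical H2A and measured 1751, 1809 and 1736 cpm at E14, 1519, 1627 and 1408 at E17, and 1740, 1429, 1347 and 1395 at P1. It measured 133, 120.5 and 119 cpm at P6, with a log2 fold change of -3.56 ± 0.20 (limma, adjusted p = 7.0e-16), and 36.5 to 53.3 cpm at P15. It held 24.0% of the embryonic histone cpm, and without it the sum at P6 was 13.7% of that at E14. However, single-end reads of 50 bases cannot tell which copy they came from where a stretch is shared. Of the 50-base stretches of Hist1h2ai, 90.1% occur in other annotated genes, and 47 genes share some stretch with it on either strand. Per length, using RefSeq gene spans for the 61 genes under 1 kb, its embryonic level was 3664 cpm per kb, followed by Hist1h2bl with 864, Hist2h2aa2 with 697, Hist1h1d with 662 and Hist1h2bg with 634 cpm per kb. Hist1h2bl shares 82.8% of its stretches, Hist2h2aa2 100% and Hist1h2bg 49.7%. Hist1h1d shares 2.25%, but over an annotated transcript of 7425 bases, against the 776 bases used for its level per kb.

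Of the 18 H2A genes tested, 16 fell. Hist1h2ao showed the largest fall of all on the log2 scale used for testing, which understates changes of low genes. It went from 167, 125, 118 and 119 cpm at P1 to 3.67, 3.24 and 3.999 cpm at P6. The log2 fold change was -4.83 ± 0.29 (adjusted p = 6.8e-15, limma), and 93.5% of the stretches of Hist1h2ao were shared. A second, lower entry of the same symbol, not used here, has the same values as Hist1h2ap in every library. Hist1h2ab fell by 4.70 and Hist1h2ak by 3.93 on the log2 scale (adjusted p = 7.9e-16 and 4.5e-14, limma). As a ratio of means Hist1h2ab fell further than Hist1h2ao, to 1.93% of its P1 mean at P6. Hist2h2aa2, of the Hist2 cluster, fell by 2.91, and Hist1h2al by 2.72 (adjusted p = 1.4e-13 and 2.2e-14, limma). Both of these entries share over 50% of their stretches with other genes.

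H2B, H3 and H4 followed. Hist1h2bl, Hist1h2bg and Hist2h2bb, the H2B genes with the highest means, fell by 4.28, 3.25 and 3.45 on the log2 scale (adjusted p = 1.6e-19, 4.6e-19 and 3.3e-18, limma). Hist2h2bb shares none of its stretches, but overlaps Gm42743 on the same strand and Gm20628 on the opposite strand. It measured 265, 204, 246 and 218 cpm at P1 against 18.1, 22.4 and 20.7 at P6. Among H3 genes, which encode H3.1 and H3.2, all 12 fell, Hist1h3h by 3.90, Hist2h3c2 by 4.11 and Hist1h3f by 3.72 (adjusted p = 1.8e-15, 6.2e-18 and 1.6e-13, limma). Of the 13 H4 genes, which encode the same H4 protein, 12 fell. Hist1h4j measured 149.6, 185, 191 and 156 cpm at P1 and 19.6, 22.8 and 18.6 at P6 (log2 fold change -3.002 ± 0.19, adjusted p = 3.1e-14, limma), and Hist1h4d and Hist1h4m fell by 2.50 and 3.08 (adjusted p = 2.1e-11 and 1.0e-13, limma).

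From P6 to P15, 20 genes fell and 2 rose, beside 3.31% of all features lower and 4.74% higher, with a median log2 fold change of -0.72 against -0.06 for all features. Of the 5 H1 genes 4 fell, and of the 12 H3 genes 4 fell, led by Hist1h3h, which went from 14.3, 20.3 and 15.9 cpm to 3.48, 3.42, 4.26 and 3.02 cpm (log2 fold change -1.96 ± 0.22, adjusted p = 2.5e-08, limma). Both genes that rose, Hist1h2bc and Hist1h2be, encode H2B. This count depended on the scale and the tool. With 0.1 in place of 1 cpm added before the logarithm limma called 35 lower and 3 higher, beside 5.55% of all features lower and 7.21% higher. EdgeR on recovered reads called 32 lower and 3 higher, beside 4.86% and 8.2%.

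Mature retina, the mean of P15, P28 and P60, was then compared with embryonic retina, the mean of E14 and E17. Of the 65 genes, 60 were lower and 1 was higher, beside 16.1% of all features lower and 14.9% higher, and the median log2 fold change was -3.24 against -0.06 for all features. The median gene kept 4.18% of its embryonic cpm. Under 5% was left in 37 of the 65 genes and over 20% in 9. The ranges of the embryonic and mature libraries were apart in 62 of the 65, and in 40.4% of all features. The 4 genes not called were Hist1h2ac, Hist1h2bc, Hist1h4c and Hist2h2be.

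On the log2(cpm + 1) scale, which understates changes of low genes, the 5 largest falls were those of Hist1h2ao (-6.17 ± 0.19, adjusted p = 8.6e-24, limma), Hist1h1b (-6.13 ± 0.14), Hist1h3h (-5.89 ± 0.14), Hist1h2bm (-5.50 ± 0.17) and Hist1h2ak (-5.41 ± 0.17). Hist1h3h encodes H3.1 and went from 257 to 291 cpm in the embryonic libraries to 1.97 to 6.90 cpm in the mature ones. In 10 of the 68 genes all 14 mature libraries held at most 3 reads, the floor used here. Hist1h3b, named here after its values were seen, measured 24.9 to 31.2 cpm in the embryonic libraries and 0.706, 0.865 and 0.276 cpm at P6, and after P6 a single read was counted in 1 of 14 libraries. Its embryonic mean was at least 72.8-fold higher than the floor of 3 reads per mature library. Hist1h2bk, chosen the same way, had 7.56 to 12.7 cpm in embryonic libraries and 0 reads in all 14 mature ones, at least 26.4-fold higher. These floors cover counting error only.

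**Figure D3:**
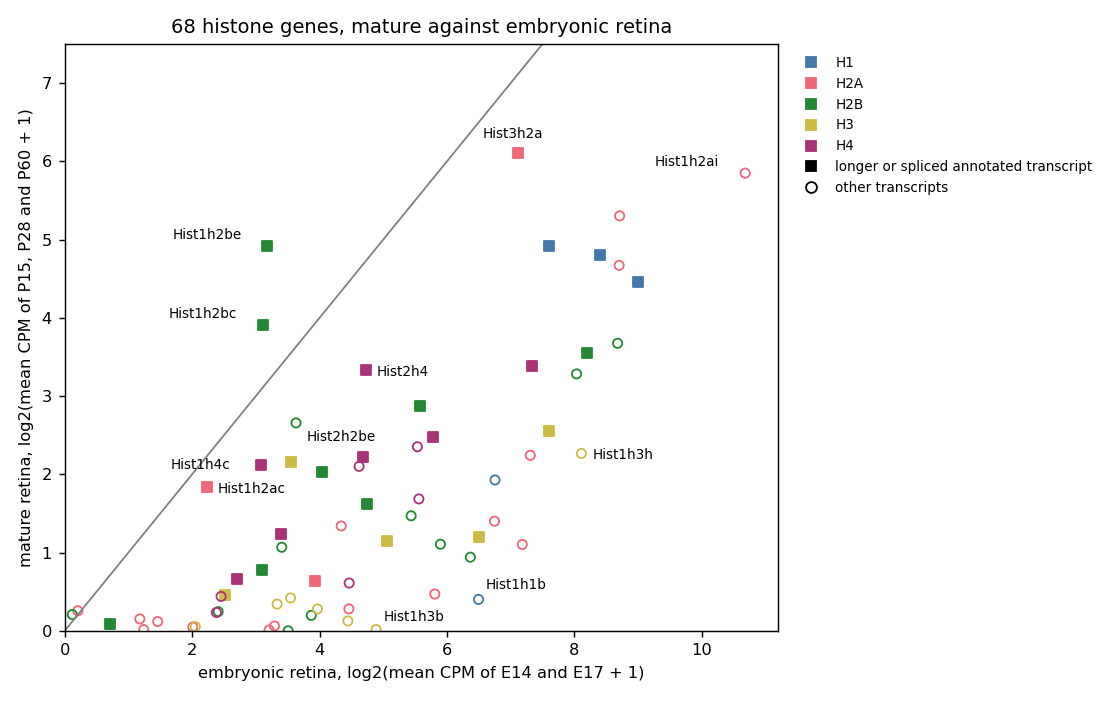
Each of the 68 genes by its embryonic (x) and mature (y) level as log2(mean cpm + 1), coloured by family, with filled squares for genes with a longer or spliced annotated transcript and open circles for the others. The grey line marks equal levels, and of the 65 tested genes Hist1h2be and Hist1h2bc lie above it, as do the barely detected Hist1h2aa and Hist1h2ba.

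A few genes kept or gained RNA in mature retina. Hist1h2be encodes H2B and measured 8.10, 6.86 and 6.84 cpm at E14, 7.67, 8.74 and 9.84 at E17, and 9.08, 9.83, 6.90 and 5.20 at P1. It measured 3.81, 2.81 and 4.96 cpm at P6, then 15.8, 11.5, 11.8 and 12.4 at P15, and 25.98, 33.8, 37.6 and 36.1 at P28. At P60 it ran from 34.3 to 49.7 cpm with a median of 40.3. The P15 libraries lay above all earlier ones and the P28 libraries above all at P15. The step from P6 to P15 had a log2 fold change of 1.52 ± 0.18 (limma, adjusted p = 3.2e-08) and the next step one of 1.31 ± 0.16 (limma, adjusted p = 5.9e-06), with 1.59 ± 0.11 between mature and embryonic retina (adjusted p = 4.4e-14, limma). It was the only histone gene called from P15 to P28, beside 0.164% of all features higher and 0.22% lower, and its share of the histone cpm was 0.106% at E14 and 8.21% at P28. The annotated gene spans 37455 bases and overlaps part of Hist1h1e on the same strand. Reads from introns or from Hist1h1e transcripts were not separated here.

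Hist1h2bc, another H2B gene, moved with it at first. It measured 7.73, 5.29, 8.03 and 5.56 cpm at P1, 3.39, 3.14 and 2.90 at P6, 13.2, 14.0, 12.4 and 12.5 at P15, and 15.3, 15.7, 15.3 and 19.0 at P28. The log2 fold change from P6 to P15 was 1.76 ± 0.25 (adjusted p = 1.3e-06, limma), and that between mature and embryonic retina was 0.76 ± 0.16 (adjusted p = 8.7e-05, limma), under the fold threshold. At P60 the libraries ran from 5.77 to 20.6 cpm with a median of 10.3, and replicates 1 and 2, at 20.6 and 20.4 cpm, stood apart from the other 4, which did not exceed 10.5. The summed cpm of 5 markers of dividing cells was 1.18 and 1.13 in those same replicates and 4.64 to 6.18 in the other 4. Most of these markers did not change, however. From P28 to P60 limma called 1 of the 5 higher (log2 fold change 1.30), beside 0.0756% of all features. Their median log2 fold change was 0.09, and 2 of the 5 had at most 3 reads in every P60 library. The part of this difference between P60 libraries in the result was not tested.

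Hist3h2a, an H2A gene of the Hist3 cluster, took the largest share of the histone cpm in mature retina. It measured 139, 143 and 139 cpm at E14 and 48.7, 46.3 and 44.1 at P6, a smaller fall from P1 than most (log2 fold change -1.37 ± 0.11, adjusted p = 1.3e-11, limma). It then measured 45.6, 39.6, 45.8 and 51.3 cpm at P15, 60.9, 58.6, 49.5 and 61.3 at P28, and 80.5 to 131 at P60 with a median of 96.2. All P60 libraries lay above all P28 libraries, and the log2 difference of 0.79 ± 0.10 (adjusted p = 2.3e-05, limma) was under the fold threshold. Its share of the histone cpm was 2.04% ± 0.0686 at E14 and 18.9% ± 2.12 at P60. Its annotated extent overlaps Trim17 on the same strand.

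From P28 to P60, limma called 0 of the 65 genes, beside 0.0756% of all features higher and 0.378% lower, and 16 passed an unadjusted p under 0.05. EdgeR called 2, Hist1h4i and Hist1h2ac, and DESeq2 called 5, all higher at P60. Of all features, edgeR called 0.579% higher and 0.743% lower, and DESeq2 0.425% higher and 0.463% lower. Without the minimum fold change, limma called 8, all higher, beside 4.8% of all features higher and 8.11% lower: Hist1h1a, Hist1h2ac, Hist1h2ai, Hist1h2al, Hist1h4i, Hist1h4m, Hist2h3c2 and Hist3h2a. Hist1h2ac, chosen after its values were seen, encodes H2A and measured 1.34, 0.790, 0.365 and 0.412 cpm at P15, 1.87, 2.53, 0.812 and 3.27 at P28, and 2.10 to 6.34 at P60 (log2 difference from P28 0.91 ± 0.25, adjusted p = 0.022, limma). Its P28 and P60 libraries overlapped. The P60 libraries were not alike. Replicates 1 and 2 had 1.18 and 1.13 cpm of dividing-cell markers, of which limma called 1 of 5 higher from P28 to P60. Their histone sum was 437 and 476 cpm against 519.6 to 670.4 in the other 4. Hist1h2al measured 35.3 and 42.1 cpm in them against 56.6 to 72.6. Without these 2 replicates, a choice made after seeing the data, limma called Hist1h2al higher (log2 fold change 1.06 ± 0.11, adjusted p = 1.5e-08), beside 0.382% of all features higher and 3.3% lower. With no minimum fold change it then called 16 genes higher and 1 lower, beside 13.4% of all features higher and 22.4% lower, the lower one being Hist1h2bc (log2 difference -0.83 ± 0.16, adjusted p = 1.0e-04, limma).

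**Figure D4:**
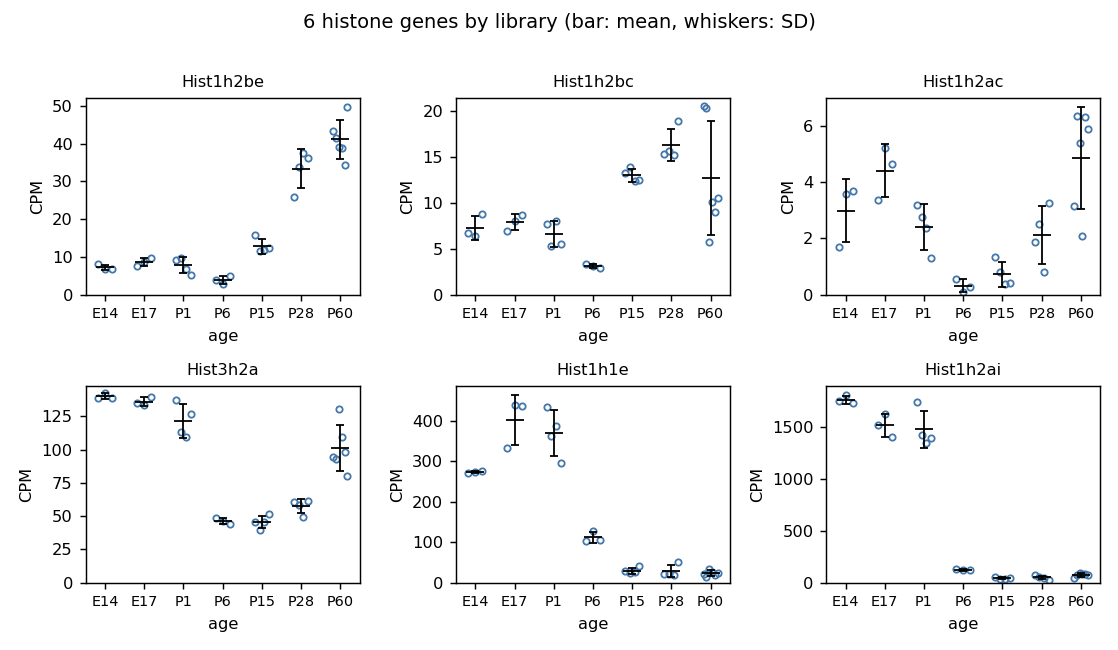
Cpm of 6 histone genes in each library (circles) by age, with the mean (bar) and SD (whiskers) of the libraries, each panel on its own axis from 0. Hist1h2be is highest at P60, Hist1h2bc splits into 2 high and 4 low libraries at P60, Hist3h2a rises again after P15, and Hist1h1e and Hist1h2ai show the fall seen in most genes.

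The genes were then grouped by their annotated transcripts. A gene was counted as long when an annotated transcript reached at least 100 bases past the stem-loop or was spliced, which held for 26 genes, and 15 of the 22 that reach past the stem-loop carry AATAAA or ATTAAA, the usual signals for a poly(A) tail, in that stretch. The long genes kept a median of 9.98% of their embryonic cpm in mature retina and the other 42 genes 2.75%. Of the 9 tested genes that kept over 20%, 8 were long: Hist1h2ac, Hist1h2bc, Hist1h2be, Hist1h2bq, Hist1h4c, Hist2h3c1, Hist2h4 and Hist3h2a. The ninth, Hist2h2be, has an annotated transcript of 2620 bases in which the stem-loop was not found. Of the 10 genes at the floor in all mature libraries, 1 was long. The summed cpm of the long genes at P6 was 21.3% of that at E14, against 7.86% for the others. These values describe the genes and were not tested. The long transcripts are those of GENCODE, whereas in 42 of the 45 genes with a stem-loop the RefSeq gene ends close to it. Which annotation was used for counting is not given, so reads past the stem-loop may not have been counted. Which 3′ ends the RNAs had cannot be read from gene counts.

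Hist2h2be and Hist1h4c, both named after their values were seen, were not called in any step. Hist2h2be encodes H2B, shares none of its stretches with other genes, and measured 11.9, 11.6, 11.5 and 12.7 cpm at P1 and 11.02, 9.73 and 11.3 at P6, a log2 difference of -0.15 ± 0.18 (adjusted p = 0.58, limma). It then measured 4.40 to 6.69 cpm at P15, below all P6 libraries, with a log2 difference of -0.92 ± 0.18 (adjusted p = 1.8e-04, limma). Hist1h4c measured 7.97, 7.44, 7.69 and 8.04 cpm at P1 and 5.23, 5.30 and 3.17 at P6. Its embryonic and mature libraries overlapped, with a log2 difference of -0.99 ± 0.16 (adjusted p = 3.0e-06, limma).

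Promoters of the genes shared short motifs. RefSeq promoters (GRCm38.p6, from 250 bases before to 50 after the annotated start) were matched by gene ID for 61 of the 68 genes and searched on both strands. TATAAA, the TATA box, was present in 57.4% of them and in 13.6% of the 32851 promoters in the table. CCAAT, bound by the factor NF-Y, was present in 85.2% against 37.4%, in all 49 genes of H1, H2A, H2B and H3 but in 3 of 12 of H4. ATTTGCAT, the octamer bound by Oct-1, was present in 14 genes, 7 of H2A and 7 of H2B, or 22.95% against 1.74% of all promoters. Members of a family have similar sequences, so the genes are not independent, and a match is a description and not a bound site. Some divergent neighbours have overlapping windows, so that the same octamer is counted for both genes. This holds for Hist1h2aa and Hist1h2ba, Hist1h2ae and Hist1h2bg, and Hist1h2ah and Hist1h2bk. The promoters of Hist1h2ai, which fell from P1 to P6 and from P6 to P15, and of 3 genes that kept over 20% of their embryonic cpm are shown, with these motifs on either strand in capitals.
Hist1h2ai (chr13:21716162-21716461, plus strand): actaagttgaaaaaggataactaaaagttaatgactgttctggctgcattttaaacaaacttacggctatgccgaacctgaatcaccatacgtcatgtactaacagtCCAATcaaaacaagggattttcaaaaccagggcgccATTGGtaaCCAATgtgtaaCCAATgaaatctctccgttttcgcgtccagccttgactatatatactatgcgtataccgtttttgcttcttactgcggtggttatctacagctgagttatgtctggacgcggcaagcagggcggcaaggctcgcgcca
Hist3h2a (chr11:58954435-58954734, plus strand): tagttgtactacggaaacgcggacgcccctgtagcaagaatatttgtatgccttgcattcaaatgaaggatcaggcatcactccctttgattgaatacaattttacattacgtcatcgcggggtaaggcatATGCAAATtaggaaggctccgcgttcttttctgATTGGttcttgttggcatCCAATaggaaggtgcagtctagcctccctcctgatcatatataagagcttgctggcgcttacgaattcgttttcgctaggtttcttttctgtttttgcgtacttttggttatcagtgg
Hist1h2be (second annotated start, chr13:23585921-23586220, minus strand): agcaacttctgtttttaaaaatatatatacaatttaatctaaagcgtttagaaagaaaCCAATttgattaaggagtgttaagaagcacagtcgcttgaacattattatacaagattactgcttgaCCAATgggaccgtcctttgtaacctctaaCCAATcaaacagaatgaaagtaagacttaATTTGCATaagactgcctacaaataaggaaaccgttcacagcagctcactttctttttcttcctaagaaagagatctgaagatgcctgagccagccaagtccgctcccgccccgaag
Hist1h2ac (chr13:23683910-23684209, minus strand): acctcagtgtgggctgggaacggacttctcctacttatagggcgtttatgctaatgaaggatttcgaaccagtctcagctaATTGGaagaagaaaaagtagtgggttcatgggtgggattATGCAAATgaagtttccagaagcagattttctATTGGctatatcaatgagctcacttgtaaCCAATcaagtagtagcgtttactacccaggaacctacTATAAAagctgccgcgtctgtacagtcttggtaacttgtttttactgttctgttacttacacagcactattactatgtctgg
The Hist1h2ac promoter holds the starts of a divergent pair, since the annotated start of Hist1h2bc lies 251 bases away on the opposite strand. Hist1h2be, Hist3h2a and Hist1h2ac hold the octamer and CCAAT in these windows, and the other annotated Hist1h2be start holds CCAAT without the octamer. Only Hist1h2ac of the 4 holds TATAAA. Hist1h2ai holds CCAAT but neither TATAAA nor the octamer in this window. Of the other genes that kept over 20%, Hist1h2bq, Hist1h4c and Hist2h3c1 hold no octamer, and Hist1h2bc, Hist2h2be and Hist2h4 had no matched promoter. The octamer also occurs in Hist1h2ab, Hist1h2bg and Hist1h2bm, which fell. A link between the octamer and the level in mature retina was not tested.

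Genes that make and handle histone mRNA were taken as a list. Of 17 genes for histone mRNA production and processing, 4 fell from P1 to P6 and 0 rose, beside the 6.74% and 6.3% of all features given above, which also apply to the lists that follow, with a median log2 fold change of -0.43. Slbp, whose protein binds the stem-loop, fell by 1.29 on the log2 scale and Eri1, an exonuclease that trims histone mRNA, by 1.25 (adjusted p = 3.0e-10 and 3.8e-09, limma). Cdk2 and Ccne1, the kinase and cyclin that switch on histone transcription at the start of S phase, fell by 2.59 and 1.98 (adjusted p = 4.7e-15 and 7.3e-11, limma). Npat, the co-activator of histone genes, differed by -0.06 ± 0.11 (adjusted p = 0.74, limma), and Lsm11, a subunit of the U7 particle, by -0.02 ± 0.13 (adjusted p = 0.92, limma). In mature against embryonic retina 6 of the 17 were lower and 0 higher, beside the 16.1% and 14.9% of all features given above, among them Casp8ap2, which acts with Npat (-1.35 ± 0.05, adjusted p = 1.1e-21, limma).

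Chaperones and replacement histones were divided. Of 9 chaperones of newly made histones, 3 fell from P1 to P6: Asf1b by 3.22, Chaf1b, a subunit of the assembly factor CAF-1, by 3.34, and Nasp by 1.54 (adjusted p = 1.9e-14, 1.4e-13 and 1.1e-11, limma). Of 5 chaperones of H3.3, the H3 variant deposited outside S phase, 0 were called in this step or between mature and embryonic retina by limma, with 2 and 3 at an unadjusted p under 0.05. Of 11 replacement histones, 6 fell from P1 to P6, among them H2afx, H2afz and H1fx by 2.99, 2.14 and 2.85 (adjusted p = 1.7e-16, 6.7e-15 and 2.4e-15, limma). The H3.3 genes behaved otherwise: H3f3a differed by -0.19 ± 0.14 and H3f3b by 0.28 ± 0.09 from P1 to P6 (adjusted p = 0.29 and 0.0092, limma), and both fell from P6 to P15, by 1.03 and 1.21 (adjusted p = 5.1e-07 and 8.3e-13, limma). H1f0, the linker histone H1.0 that is usually linked to cells that have stopped dividing, fell by 1.35 and then by 1.69 (adjusted p = 9.9e-10 and 1.7e-11, limma).

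**Figure D5:**
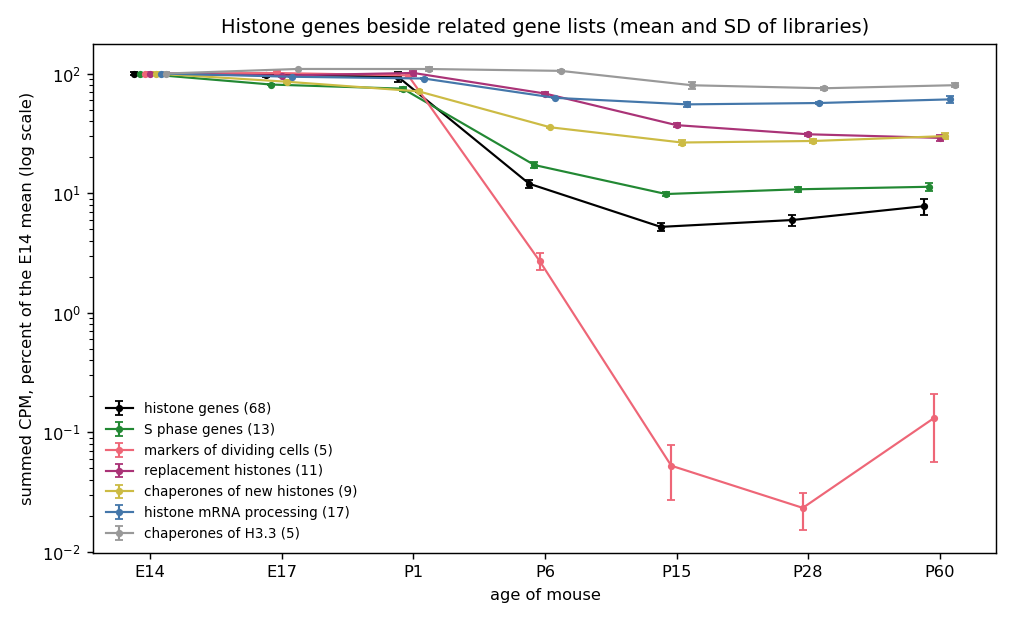
Summed cpm of the 68 histone genes and of 6 gene lists at each age as a percent of the list's E14 mean (log scale), with the SD of the libraries. The histone genes stood at 12.0% at P6, near the S phase genes (17.2%) and above the markers of dividing cells (2.705%), and all other lists stayed above 25% at every age.

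Histone genes were set beside other genes of the cell cycle. The 13 S phase genes stood at 17.2% of their E14 level at P6 and at 9.83% at P15, and 12 of the 13 fell from P1 to P6, with a median log2 fold change of -2.59. Per cpm of S phase genes, histone cpm was 6.70 ± 0.250 at E14 (SD, n = 3), 8.46 ± 0.734 at P1 (n = 4), 4.68 ± 0.432 at P6 (n = 3) and 3.56 ± 0.327 at P15 (n = 4). The 5 markers of dividing cells, Mki67, Top2a, Ccnb1, Cdk1 and Aurkb, summed to 2999 to 3258 cpm in the embryonic libraries, 68.8 to 92.4 at P6 and 0.406 to 6.18 from P15 on. Their sum at P15 was 0.0526% of that at E14, whereas that of the histone genes was 5.22%. All 6 retina markers had over 3 reads in a library of every age, and their sum was 1317 to 1345 cpm at E14 and 16520 to 20340 at P60. Summed markers of the pigment epithelium were 4.64 to 9.51 cpm in the embryonic libraries, 16.4 to 32.2 at P6 and 7.78 to 34.5 from P15 on, those of the 5 blood genes 12.5 to 20.8, 39.6 to 50.3 and 19.9 to 43.3, and those of the 5 lens genes in the table did not exceed 9.94 cpm in any library, with Cryaa at 0 in all libraries of E17, P1, P15 and P28. Vessel markers summed to 165 to 336 cpm in embryonic libraries, 421 to 491 at P1 and 202 to 240 in mature libraries. That sum does not follow most of its genes. From P1 to P6, 3 of the 5 vessel genes were called higher and 0 lower, with a median log2 fold change of 1.82. Between mature and embryonic retina 3 were higher and 0 lower, with a median of 1.52. Of all features, 6.3% and 14.9% were higher in these comparisons. Microglia markers did not exceed 25.7 cpm in any library. The part of these cells in the histone values was not tested.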

How the data were processed

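RNA-seq libraries of total RNA from whole C57BL/6J retina were made with a random-primed total RNA kit and read as single ends of 50 bases. Per the labels and the study's methods, the authors aligned the reads with STAR to mm10 and deposited CPM values per gene. The annotation used for counting, its use of strand and its handling of reads with several matches are not given in the sources used here. The 27 libraries were grouped by the age in their labels (7 ages), and members and gene lists were chosen with earlier results of these data known. The labels do not say that same-numbered libraries belong together, and p-values measure the spread between these pools or mice.

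From the deposited CPM, log2(CPM + 1) was fitted for 31760 of 38168 features (at least 1 CPM in at least 3 libraries) with limma 3.58.1 and a mean-variance trend, with age as the only factor and all libraries in 1 fit. A gene was called at a Benjamini-Hochberg adjusted p under 0.05 over all features, with a log2 fold change of 1 or more in either direction. Fold changes are on this scale and understate changes of low genes. CPM steps gave whole reads for 100% of values (within 0.1 read), 7076646 to 11330762 per library with a median of 7968785. On these reads edgeR 4.0.16 called 3117 features higher and 2806 lower from P1 to P6, and DESeq2 1.42.0 was a further alternative. The floor of 3 reads was 0.265 to 0.424 CPM. The fits were tested on simulated counts. Sequences were read from GENCODE and RefSeq annotations of GRCm38, and 50-base stretches were compared between annotated transcripts. R 4.3.3, Python 3.11.15, pandas 2.3.3 and matplotlib 3.10.9 were used.

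The genes named were the 3 of each family with the highest mean CPM, the 8 with the highest mature mean, the 5 with the largest called fall and each called rise between mature and embryonic retina, the 3 with the largest called change in each direction per step between neighbouring ages, and the testis genes. List genes were named from those called, with a few uncalled ones for contrast. Genes named otherwise are said to be chosen after their values were seen.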

Additional observations from a re-analysis of the deposited data

Results flagged for a closer look

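In groups of 4 to 6 libraries, 12 of 124 groups tested held a library whose distance from the nearest other library was over Dixon's 95% limit relative to the range of its group, and chance flags about 1 in 20 groups. The libraries of an age are separate pools or mice, and the causes were not tested.

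Library 4 of P28 stood apart in 5 of the 12. It measured 30.0 cpm for Hist1h1d (15.9 to 17.5 in the other P28 libraries), 50.5 cpm for Hist1h1e (19.9 to 20.9), 113 cpm for the summed H1 genes (61.9 to 64.5), 21.7 cpm for Hist1h2bl (10.7 to 11.3) and 19.0 cpm for Hist1h2bc (15.3 to 15.7). Library 1 of P1 was high for Hist1h2ao at 167 cpm (118 to 125 in the others) and for Hist1h3h at 311 cpm (239.8 to 252).

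Hist1h2ai was low in library 1 of P60, at 42.1 cpm against 75.8 to 95.2 in the other 5. The remaining flags were at low levels. Hist1h1b measured 0.790 cpm in library 2 of P15 (0 to 0.134 in the others) and 1.51 cpm in library 3 of P60 (0.141 to 0.525). The testis gene Hist1h2ba measured 0.400 cpm in library 1 of P28, where the other 3 had 0 reads, and 1.22 cpm in library 6 of P60 (0 to 0.221).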

How the results depend on the processing

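From E14 to E17 and from E17 to P1, 0 genes were called by limma, edgeR and DESeq2 and without any single library. From P1 to P6 limma called 59 of 65 (58 to 60 without single libraries), and 33 of the 35 genes that averaged 10 cpm or more. Between mature and embryonic retina it called 61 (60 to 62), and 34 of 35 with that limit, so that fewer genes were tested. From P6 to P15 it called 22 (21 to 25), with 39 at no minimum fold change, 38 with 0.1 added in place of 1 cpm, and 35 with edgeR, also without E14 replicate 1, a setting added after seeing the data. From P15 to P28 it called 1 (1 to 2, the higher without P28 replicate 3), with 2 for 0.1 added and 3 with DESeq2. From P28 to P60 it called 0 (0 to 1, the higher without P28 replicate 4 or P60 replicate 4), with 8 at no minimum fold change, 3 for 0.1 added, 2 with edgeR, also without E14 replicate 1, and 5 with DESeq2. Without P60 replicates 1 and 2, also added after seeing the data, limma called 1 gene from P28 to P60 and the same number as with all libraries in every other comparison. With no minimum fold change as well, it called 17 genes from P28 to P60, 2 from P15 to P28, 40 from P6 to P15 and 1 from E14 to E17. The cause of these differences was not tested. Of 61 results for named genes, 59 kept their direction and call under the 40 alternatives that were run. Some of these could hardly remove a call. Dropping the minimum fold change only loosens the rule, and many left out 1 library of an age outside the comparison. Hist1h2al and Hist2h3c2, lower from P6 to P15, lost their call under 7 and 3 of them. The summed level at E17 was 6373 cpm after median-of-ratios scaling against 6768 as deposited.

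Same-numbered libraries of different ages did not deviate together (69 pairs, correlation -0.129 to 0.167, against -0.291 to 0.249 in the 240 other pairs). This cannot show whether same-numbered samples were collected or processed together. With the replicate number as a block, limma called 0, 0, 59, 25, 1 and 0 genes in the 6 steps in order of age and 61 between mature and embryonic retina. Depth limits the mature values, with a median of 10 reads per gene and library against 214 in embryonic retina.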
